A study of Danio rerio with 6 samples.

Results

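The genes described here are 10 zebrafish genes of melanin pigmentation, chosen by symbol: tyr, tyrp1a, tyrp1b, dct, pmela, pmelb, mitfa, oca2, slc45a2 and slc24a5. All 10 were found among the 32520 genes of the deposited count table, and all 10 passed the filter on low counts that left 21708 genes for testing. Polyadenylated RNA was sequenced from embryos, with no dissected part named, aged 5 days post fertilization: 3 libraries were sas10 mutant and 3 were wild type, all given as biological repeats. The labels give neither the sas10 allele nor the strain, and do not say how many embryos a library pooled or when mutants were sorted. Sas10 is a nucleolar factor of ribosome assembly and is encoded by utp3 in zebrafish.

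Melanin is made in melanosomes, the pigment organelles of melanophores, which are black cells of neural crest origin. Tyrosinase starts the synthesis from tyrosine, related enzymes carry its intermediates on, and an amyloid scaffold of Pmel protein holds the polymer, while membrane transporters set the ion balance that the enzymes need. The transcription factor Mitfa is required for zebrafish melanophores, and the melanin genes are also used in the pigmented epithelium of the retina, so an embryo library reads both sources together. In such bulk libraries, fewer pigmented cells and less RNA per cell cannot be told apart.

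Total gene counts ran from 19067576 to 19718753 in the mutant libraries and from 17599625 to 18697868 in the wild type libraries. The mean correlation of log2 CPM (counts per 1000000, on scaled library sizes) with the other libraries of the same genotype was 0.986 for each mutant library and 0.976 to 0.982 for the wild type libraries, lowest for the library headed wt11. The targeted transcript utp3 was at 10.7, 11.3 and 10.5 CPM in the mutant libraries, against 35.0, 34.7 and 27.2 CPM in wild type (log2 fold change -1.58 ± 0.13, standard error, SE; adjusted p = 1.533e-06, edgeR's quasi-likelihood test with Benjamini-Hochberg adjustment, as for all adjusted p-values of genes here). Gene calls were common in this comparison: at an adjusted p under 0.05, mutants had 30.5% of tested genes higher and 31.8% lower, 62.2% in all. Members' counts are to be read against these shares.

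Of the 10 pigment genes, 8 fell in sas10 mutants, 0 rose and 2 were not called. The share of tested genes called lower was 31.8%, and the median log2 fold change was -0.90 over the pigment genes and -0.04 over all tested genes. For those 8 genes every mutant library lay below every wild type library, a pattern that held in the lower direction for 34.1% of all tested genes and in either direction for 67.6%. The decreases ran from log2 -1.66 in oca2 to -0.67 in pmela. Summed over the 10 genes, the level was 71.8, 80.9 and 76.7 CPM in mutant libraries, against 152.0, 141.2 and 121.5 CPM in wild type libraries. The mutant mean was 55.3% of the wild type mean (exact permutation p = 0.1, two-sided, the smallest that 3 against 3 libraries can give).

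**Figure D1:**
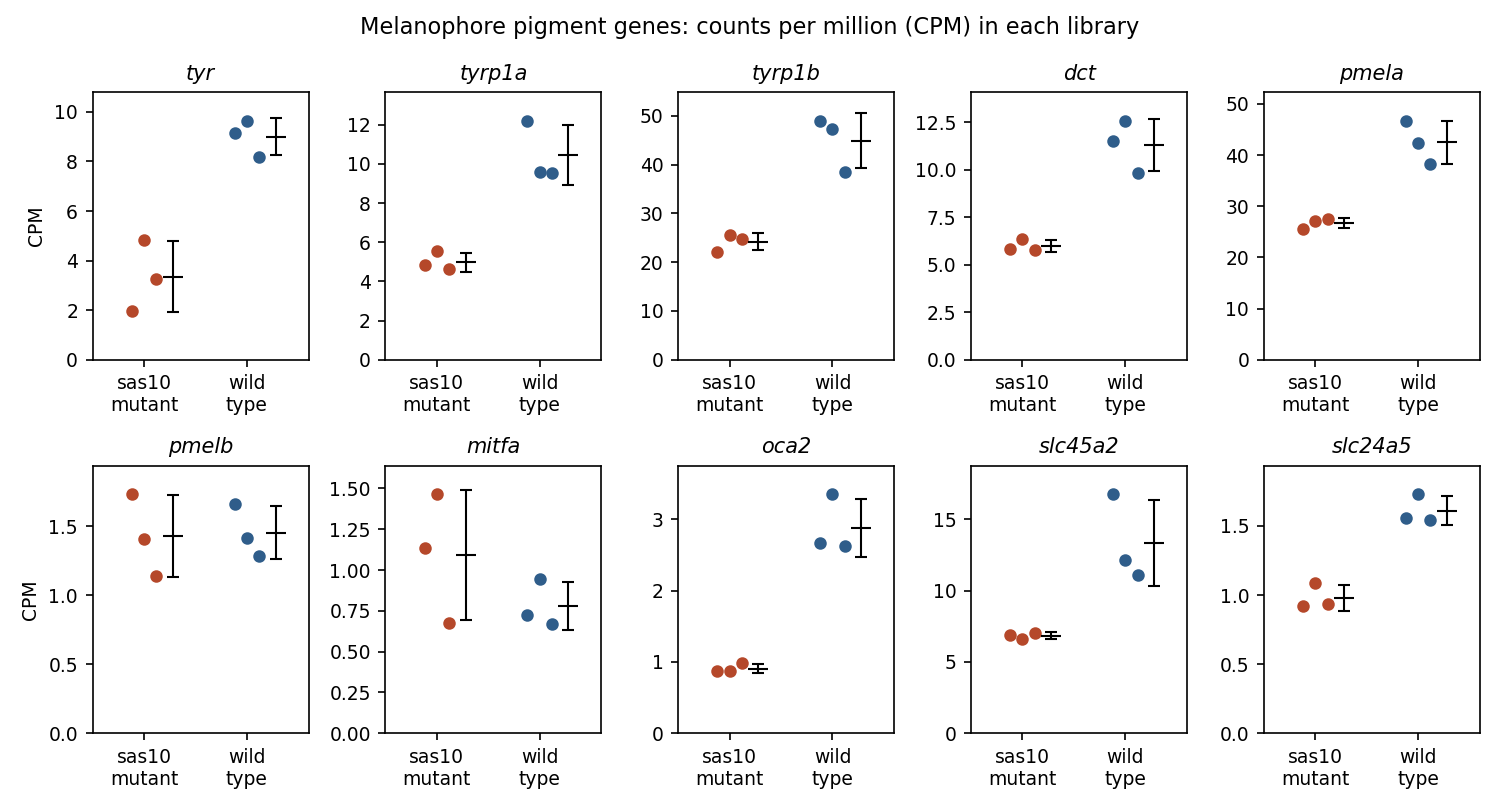
CPM (vertical axes from 0) of each pigment gene in every library, with sas10 mutants on the left and wild type on the right. Points are libraries and the bar beside them is the mean ± SD (n = 3 each). The groups are apart in 8 panels and overlap for pmelb and mitfa.

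The regulator comes first in the pathway. Mitfa, a basic helix-loop-helix leucine zipper factor that binds the promoters of melanin genes, is encoded by mitfa (ENSDARG00000003732, GRCz11 chromosome 6, 43390387 to 43433277). It had 21, 27 and 13 counts in the mutant libraries, against 13, 18 and 13 counts in wild type, which is 1.14, 1.47 and 0.67 CPM against 0.72, 0.94 and 0.67 CPM. The mutant libraries s1 and s2 lay above all wild type libraries and s3 lay among them. The log2 fold change of 0.48 ± 0.38 did not pass (adjusted p = 0.2927), with a 95% interval from -0.36 to 1.32. The paralog mitfb (ENSDARG00000037833), which in zebrafish is expressed in the developing retinal pigment epithelium, had 1.30, 0.43 and 0.26 CPM in mutants against 1.22, 0.63 and 1.08 CPM in wild type. Its log2 fold change of -0.56 ± 0.53 did not pass either (adjusted p = 0.3849).

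The enzymes of melanin synthesis all fell. Tyrosinase, the copper enzyme that catalyses the first step, is encoded by tyr (ENSDARG00000039077, chromosome 15, 43799258 to 43818697, plus strand). Its level was 1.95, 4.83 and 3.26 CPM in mutants, against 9.16, 9.65 and 8.19 CPM in wild type (log2 -1.42 ± 0.26, adjusted p = 0.0006462). The mutant libraries varied more than the wild type ones here: 36 counts in s1, 89 in s2 and 63 in s3, against 165, 184 and 159 in wild type. The fold change was between log2 -1.77 and -1.13 when single libraries were left out, and it passed each time.

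Dopachrome tautomerase, which converts dopachrome on the way to eumelanin, is encoded by dct (ENSDARG00000006008, chromosome 9, 53327332 to 53352682). Mutant libraries had 5.85, 6.35 and 5.75 CPM of dct and wild type libraries 11.5, 12.6 and 9.84 CPM. The mutant values lay close together, and the log2 fold change was -0.92 ± 0.15 (adjusted p = 0.000326). The tyrosinase-related protein genes are a pair of duplicates whose mammalian counterpart acts late in eumelanin synthesis and stabilises tyrosinase. For tyrp1b (ENSDARG00000056151, chromosome 1, 19332837 to 19346048), mutants had 22.2, 25.6 and 24.8 CPM against 49.0, 47.3 and 38.4 CPM in wild type. It fell by 0.89 on the log2 scale (SE 0.13, adjusted p = 8.353e-05).

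The other copy, tyrp1a (ENSDARG00000029204, chromosome 7, 74084203 to 74090168, minus strand), stood at 4.82, 5.54 and 4.61 CPM in mutants against 12.2, 9.59 and 9.53 CPM in wild type. It fell by a similar step (log2 -1.06 ± 0.17, adjusted p = 0.0002107). Counts per kilobase of tyrp1a were compared with those of tyrp1b inside each library, which needs no scaling between libraries. The log2 ratio was -2.16, -2.17 and -2.39 in mutants and -1.97, -2.27 and -1.98 in wild type. These ranges overlapped (difference -0.17, exact permutation p = 0.3, adjusted p = 0.3 over 2 paralog pairs), and tyrp1b remained the main copy in every library.

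Pmel, the scaffold, is the amyloid protein on which melanin is laid down, and zebrafish carry 2 genes for it. For pmela (ENSDARG00000091298, chromosome 11, 3254252 to 3272020), the level was 25.5, 27.1 and 27.4 CPM in mutants against 46.7, 42.4 and 38.3 CPM in wild type. It fell (log2 -0.67 ± 0.11, adjusted p = 0.0003336) and was the least reduced of the 8 called members. For pmelb (ENSDARG00000033760, chromosome 23, 35672542 to 35690336), counts were 32, 26 and 22 in mutants and 30, 27 and 25 in wild type. The groups overlapped, and the log2 fold change of -0.03 ± 0.30 did not pass (adjusted p = 0.9416), with a 95% interval from -0.68 to 0.62.

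The log2 ratio of pmela to pmelb per length was 3.21, 3.59 and 3.91 in mutants and 4.14, 4.23 and 4.22 in wild type. All mutant ratios lay below all wild type ratios, by 0.63 in the mean (exact permutation p = 0.1, the smallest possible; adjusted p = 0.2 over the 2 pairs). An exon of pmela shares bases with timeless on the same strand, so reads there are uncertain between these genes. The gene timeless, which acts at replication forks, was at 56.9, 57.7 and 57.5 CPM in mutants and 36.0, 36.5 and 32.1 CPM in wild type, the opposite direction to pmela. No exon of the other 9 members overlaps another gene of the table. The gene pmela also lies on the chromosome of utp3, at a distance of 23.1 Mb, and the part of neighbouring alleles carried along with the sas10 lesion was not tested.

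**Figure D2:**
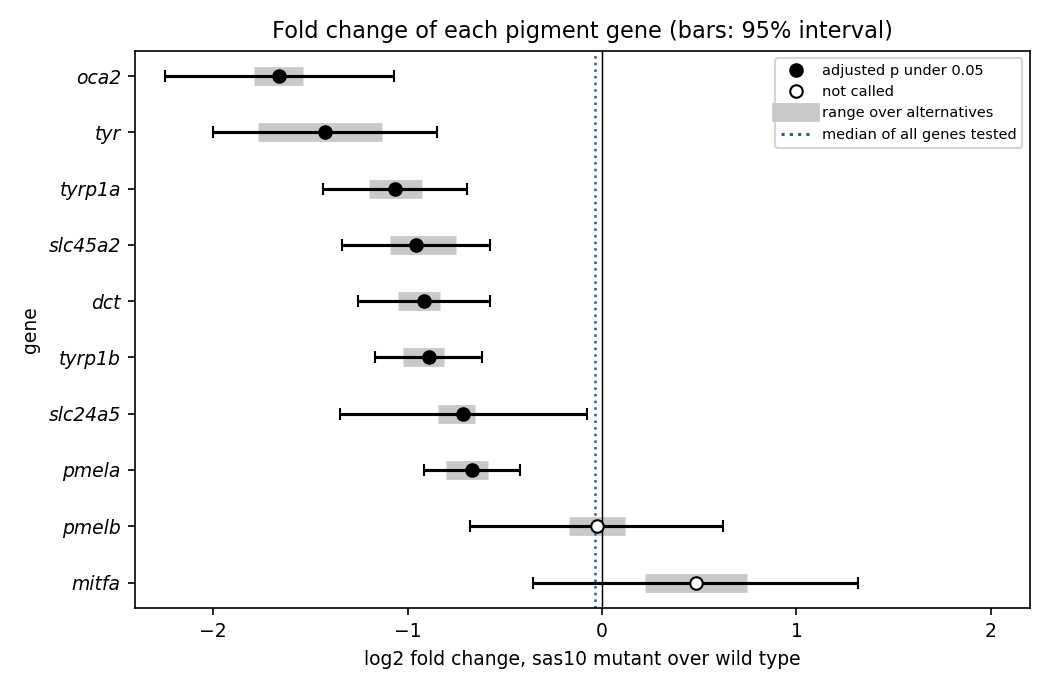
Log2 fold change of each pigment gene, sas10 mutant over wild type (horizontal axis), with its 95% interval; filled points passed an adjusted p under 0.05. Grey bars span the values over 13 other settings at most, and the dotted line is the median of all tested genes, -0.04. The gene oca2 is furthest to the left, and the intervals of pmelb and mitfa include 0.

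Transporters of the melanosome membrane were reduced as well. Oca2 is a melanosomal chloride channel component whose human counterpart is altered in oculocutaneous albinism. The gene oca2 (ENSDARG00000061303, chromosome 6, 37894220 to 38054851) had 16, 16 and 19 counts in mutants against 48, 64 and 51 counts in wild type. With 0.87, 0.87 and 0.98 CPM in mutants against 2.66, 3.36 and 2.63 CPM in wild type, it fell furthest of all members (log2 -1.66 ± 0.27, adjusted p = 0.00024), to 31.6% of the wild type level. Its 95% interval, -2.25 to -1.07, overlaps those of the enzymes.

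Slc45a2 is a sugar and proton symporter homolog required for normal melanosome pH. The gene slc45a2 (ENSDARG00000002593, chromosome 21, 19445942 to 19484289) had 6.88, 6.62 and 7.04 CPM in mutants against 16.8, 12.2 and 11.1 CPM in wild type. Mutant libraries were almost level with each other, while wt11 stood above the other wild type libraries. The log2 fold change was -0.96 ± 0.17 (adjusted p = 0.0005472), and -0.75 without wt11, where the gene still passed.

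Slc24a5 is the potassium-dependent sodium-calcium exchanger whose loss gives the golden zebrafish its pale stripes. The gene slc24a5 (ENSDARG00000024771, chromosome 18, 5213338 to 5227420) had 17, 20 and 18 counts in mutants against 28, 33 and 30 counts in wild type. The groups did not overlap, but the call was marginal (log2 -0.71 ± 0.29, adjusted p = 0.04915). It did not pass in 11 of 13 other settings, among them DESeq2 (adjusted p = 0.157), limma voom (adjusted p = 0.05208) and every fit that left out a library (adjusted p = 0.07725 to 0.1314). Its log2 fold change stayed between -0.84 and -0.65 in them. The 7 other members that fell passed in all 13 settings.

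Levels can be ordered between genes only per length. As CPM per kilobase of exon, the wild type order was tyrp1b (22.8 ± 2.89, SD, n = 3), pmela (12.4 ± 1.23), slc45a2 (7.64 ± 1.73), tyrp1a (5.42 ± 0.79), dct (5.18 ± 0.63), tyr (4.62 ± 0.38), oca2 (1.13 ± 0.16), slc24a5 (0.80 ± 0.05), pmelb (0.66 ± 0.09) and mitfa (0.34 ± 0.06). In that order, tyrp1a, dct and tyr overlapped their neighbours, and the other neighbours had no overlapping libraries. In mutants the order began with the same genes, tyrp1b (12.3 ± 0.92), pmela (7.77 ± 0.30) and slc45a2 (3.93 ± 0.12), and the genes tyrp1b and pmela made up 37.2% and 23.5% of the members' summed level per length, against 37.4% and 20.3% in wild type. The gene oca2 stood at rank 10 in mutants, at 0.36 ± 0.03 CPM per kilobase, and at rank 7 in wild type. The mutant levels of pmelb (0.65 ± 0.14), slc24a5 (0.49 ± 0.05) and mitfa (0.48 ± 0.17) each overlapped those of the next gene in the order, the last of which was oca2.

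**Figure D3:**
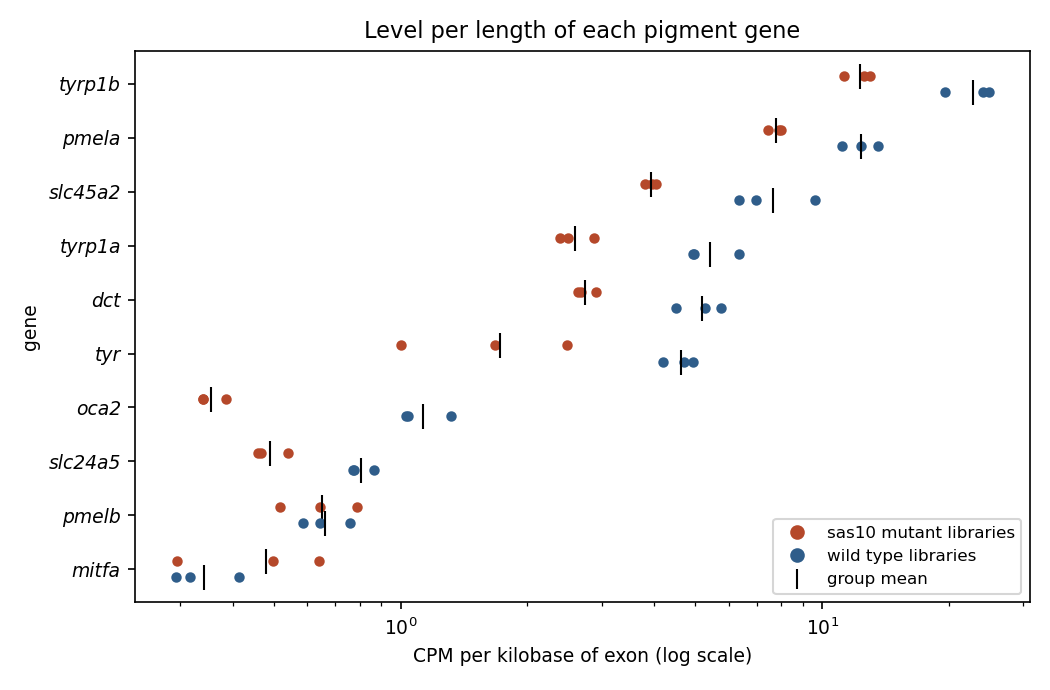
Level of each pigment gene as CPM per kilobase of exon on a log axis; points are libraries, with sas10 mutants above wild type in each row, and ticks are group means. The gene tyrp1b is highest in both genotypes, and oca2 falls among the lowest genes in mutants.

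How the members stood to the regulator was compared within libraries. The log2 ratio of tyr to mitfa per length was 0.99, 1.93 and 2.46 in mutants and 3.84, 3.55 and 3.79 in wild type. For oca2 to mitfa it was -0.54, -0.90 and 0.37 in mutants and 1.68, 1.64 and 1.77 in wild type, so that in 2 mutant libraries oca2 was below mitfa and in all wild type libraries above it. Of 9 such ratios, 8 were lower in every mutant library than in any wild type library (exact permutation p = 0.1, adjusted p = 0.1125 for each). The differences ran from -2.06 for oca2 to -1.09 for pmela. The ratio of pmelb to mitfa overlapped (difference -0.46, exact permutation p = 0.3). The ratios share mitfa, which had 13 to 27 counts, so they rise and fall together with its counting error. The 8 genes are the same 8 members called lower above, and the uncalled change of mitfa (log2 0.48 ± 0.38) widened each difference. The share of all tested genes whose ratio to mitfa was apart in this way was not computed.

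**Figure D4:**
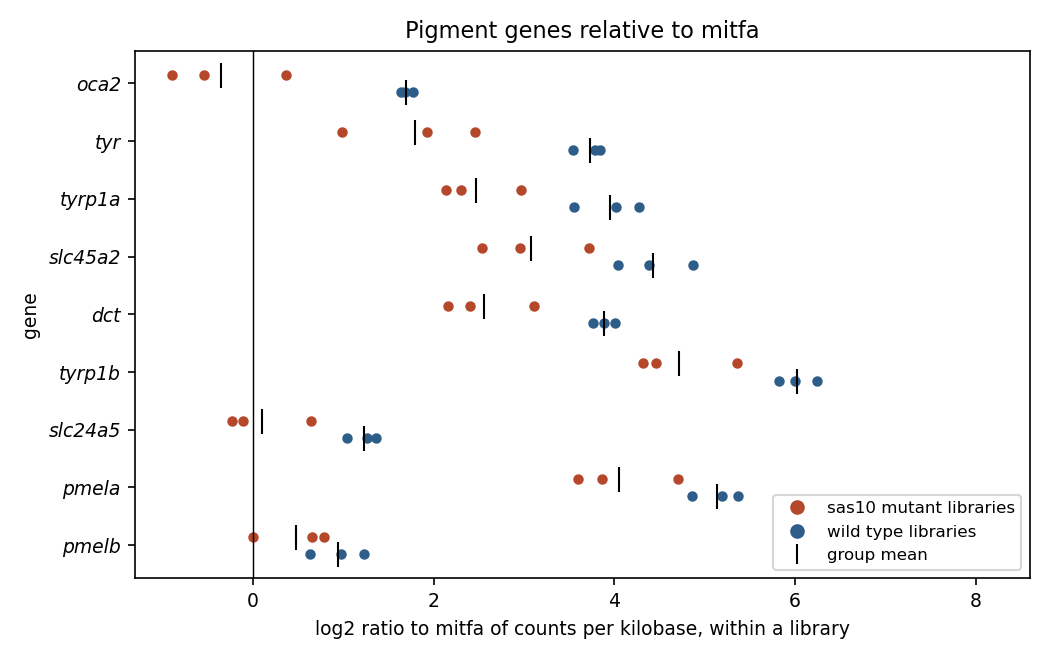
Log2 ratio of each pigment gene to mitfa, both as counts per kilobase, within each library; sas10 mutant libraries are above wild type in each row and ticks are group means. Mutant and wild type libraries are apart in 8 of the 9 rows and overlap for pmelb.

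In the authors' deposited table of called genes, 6 members have a row, with log2 fold changes of -1.495 for tyr, -1.13 for tyrp1a, -1.03 for slc45a2, -0.99 for dct, -0.96 for tyrp1b and -0.74 for pmela. These 6 are also the members of highest level per length in wild type. The rows of the authors' deposited table begin at an absolute log2 fold change of 0.585, and the largest adjusted p given by the authors there is 0.0494. The genes oca2 and slc24a5 have no row there, although their log2 fold changes here, -1.66 and -0.71, lie beyond 0.585. In the DESeq2 fit made here, slc24a5 did not pass and oca2 did. Why they are absent was not tested. The genes pmelb and mitfa, not called here, have no row either.

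The list of neural crest and melanophore regulators held 35 genes, of which 32 were tested, with 12 lower and 9 higher in mutants and a median log2 fold change of -0.19. These are 37.5% and 28.1% of the list, against 31.8% lower and 30.5% higher over all tested genes, and the list also holds genes used in most cells, such as hdac1. By the naming rule, those that fell most were mc1r, the melanocortin receptor that drives pigment dispersal and melanin synthesis, at 1.23 ± 0.13 CPM in mutants against 3.61 ± 0.24 in wild type (log2 -1.55 ± 0.24, adjusted p = 0.0001586), and tfap2e (log2 -1.48 ± 0.21), a factor acting with tfap2a in zebrafish melanophores. Those that rose most were snai2 (log2 1.84 ± 0.13) and twist1a (log2 1.32 ± 0.15), factors of migrating neural crest and mesenchyme. The receptor tyrosine kinase gene kita, needed for melanophore migration and survival, was picked after its value was seen: it was at 6.01, 6.08 and 6.37 CPM in mutants against 11.3, 9.07 and 11.7 CPM in wild type and fell (log2 -0.80 ± 0.16, adjusted p = 0.0009467). The neural crest gene sox10, picked likewise, had 17.9, 19.9 and 16.7 CPM in mutants against 22.0, 20.6 and 20.2 CPM in wild type and did not pass (log2 -0.20 ± 0.12, adjusted p = 0.159).

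Of 43 tested genes for melanosome formation and transport, 13 fell, 11 rose and 19 were not called, with a median log2 fold change of -0.01. The shares, 30.2% lower and 25.6% higher, were near the 31.8% and 30.5% of all tested genes. The genes that fell most were both trpm1 copies, for a cation channel of melanocytes and of retinal ON bipolar cells: trpm1b was at 5.91 ± 0.38 CPM in mutants against 33.1 ± 8.90 in wild type (log2 -2.49 ± 0.19) and trpm1a at 1.19 ± 0.45 against 8.86 ± 5.76 (log2 -2.89 ± 0.57, adjusted p = 0.002182). The tetraspanin gene cd63, which loads Pmel into melanosome precursors in mammals and is a general lysosome component, was at 588.9 ± 40.9 CPM in mutants against 125.4 ± 20.7 CPM in wild type (log2 2.23 ± 0.15), and rab27a, which tethers melanosomes to their motor, also rose (log2 1.175 ± 0.13). Decreases in this list were fewer in some settings: 8 by DESeq2, and 7, 7 and 8 without s1, s2 and s3.

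**Figure D5:**
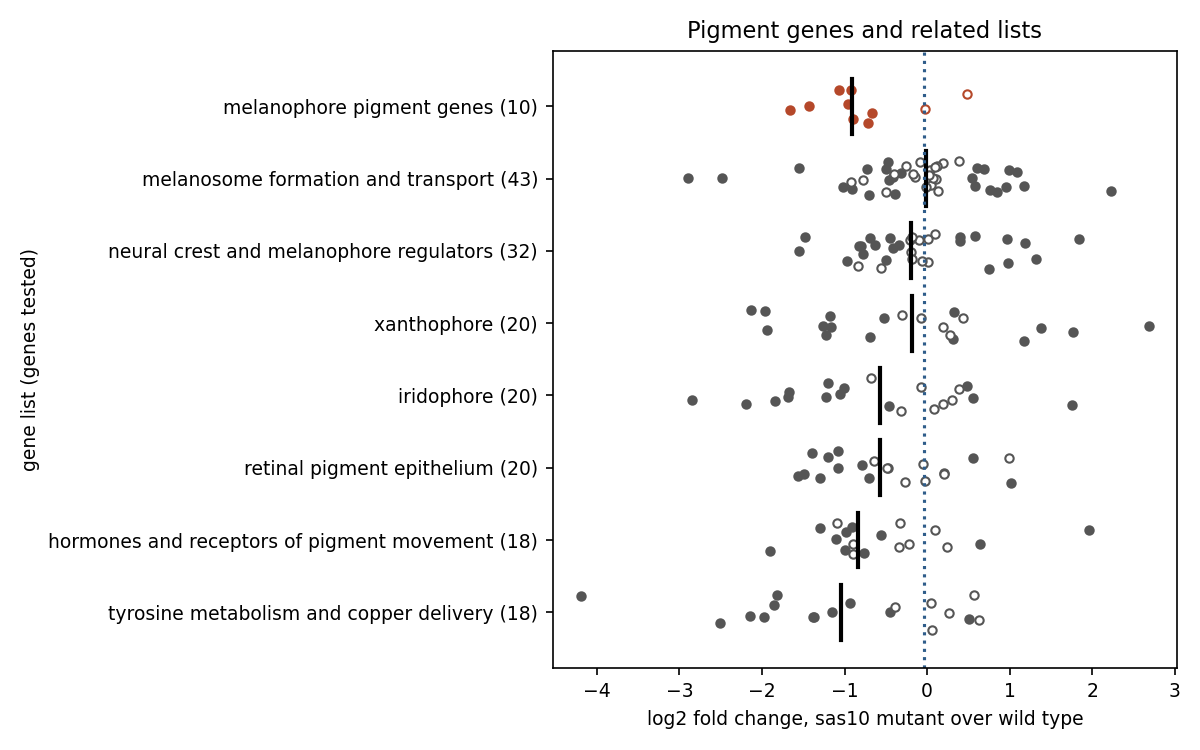
Log2 fold change, sas10 mutant over wild type, of the pigment genes and of 7 related gene lists; each point is a gene, filled where the adjusted p was under 0.05, black ticks are list medians and the dotted line is the median of all tested genes. Of the 10 pigment genes, 8 lie well left of the dotted line (median -0.90). Medians of the related lists run from -1.04 for tyrosine metabolism and copper delivery to -0.01 for melanosome formation and transport, which spreads to both sides.

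The pigmented retina was read from a marker list, since it shares the melanin genes. Of 20 tested genes of the retinal pigment epithelium, 10 were lower and 2 higher in mutants, and the median log2 fold change was -0.56. Over all tested genes, 31.8% were lower and 30.5% higher. The genes of this list fixed in the naming rule, rpe65a and rlbp1b, did not pass, while rlbp1a, the duplicate of rlbp1b, fell. The retinoid isomerase gene rpe65a had 19.5, 14.1 and 16.9 CPM in mutants against 12.5, 14.8 and 16.5 CPM in wild type (log2 0.20 ± 0.15, adjusted p = 0.2778). The retinaldehyde binding protein gene rlbp1b was at 2.33, 3.09 and 2.17 CPM in mutants against 2.16, 2.41 and 2.01 CPM in wild type (log2 0.21 ± 0.25, adjusted p = 0.4866). The genes of the list that fell most were rlbp1a (log2 -1.56 ± 0.15) and the opsin gene rgra (log2 -1.49 ± 0.17). The level of rlbp1a was 7.22 ± 1.09 CPM in mutants against 21.3 ± 1.58 CPM in wild type (adjusted p = 3.372e-06). Which retinal cells use each rlbp1 copy was not tested. Among the list's other decreases, picked after their values were seen, were otx2b (log2 -1.39 ± 0.12), rdh5 (log2 -1.205 ± 0.22) and slc16a8 (log2 -1.08 ± 0.24). The duplicate otx2a, picked likewise, did not pass (log2 -0.05 ± 0.20, adjusted p = 0.8382), and 8 genes of the list were not called. The genes of the list that rose were mertka (log2 1.02 ± 0.14), a phagocytosis receptor gene, and stra6 (log2 0.55 ± 0.11), for the retinol binding protein receptor.

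Summed, the list was at 741.7 to 828.0 CPM in mutants against 1394 to 1867 CPM in wild type, but rbp4, a plasma protein gene also expressed in liver, and the connexin gene gja1b took 80.5% to 90.3% of it. Without this pair the sum was 139.4 to 149.8 CPM in mutants against 182.0 to 198.9 CPM in wild type, a mutant mean of 75.5% of wild type, beside the 55.3% of the pigment genes. No gene of the list was at 0 in either genotype. The log2 ratio of summed pigment genes to the summed list differed by 0.14, mutant minus wild type, with rbp4 and gja1b in the list (exact permutation p = 0.4). Without this pair the difference was -0.44 (exact permutation p = 0.1). The direction thus depended on that pair, and it also turned when mean log2 CPM replaced the sums. The part of the pigmented retina in the decrease of the pigment genes was not tested.

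The other pigment cells were read in the same way. In zebrafish, xanthophores are yellow cells that hold pteridines and carotenoids, and iridophores are silvery cells that hold purine crystals. Among 20 xanthophore genes, decreases numbered 9 and increases 6, around a median log2 fold change of -0.19. As shares, 45.0% were lower and 30.0% higher, against 31.8% and 30.5% over all tested genes. The marker gch2, for the first enzyme of pteridine synthesis, was at 60.0, 67.8 and 57.6 CPM in mutants against 43.7, 52.0 and 54.2 CPM in wild type (log2 0.31 ± 0.12, adjusted p = 0.038), a rise that did not pass with upper-quartile scaling or without s1, s2, wt11 or wt12. The marker aox5 overlapped between genotypes (log2 0.19 ± 0.13, adjusted p = 0.2108). The carotenoid cleavage gene bco1 (log2 -2.14 ± 0.13) and xdh (log2 -1.97 ± 0.13), for xanthine dehydrogenase, fell most, and both are also used outside pigment cells. The cytokine genes il34 (log2 2.69 ± 0.22) and csf1b (log2 1.76 ± 0.18), ligands of the receptor Csf1r, rose most.

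Iridophore genes had 10 decreases and 3 increases among 20, with a median of -0.57. The shares over all tested genes were 31.8% lower and 30.5% higher. The marker pnp4a, for a purine nucleoside phosphorylase, was at 8.40, 10.4 and 9.01 CPM in mutants against 30.5, 39.8 and 29.4 CPM in wild type (log2 -1.84 ± 0.15, adjusted p = 1.158e-06). The receptor tyrosine kinase gene ltk fell less (log2 -0.46 ± 0.13, adjusted p = 0.008244). Most reduced were an akr1b1 copy (ENSDARG00000006215, log2 -2.84 ± 0.12) and gpnmb, a pmel relative, at 33.8 ± 2.34 CPM in mutants against 155.1 ± 2.21 CPM in wild type. The genes alkal2a, for an Ltk ligand (log2 1.75 ± 0.40), and impdh1b, of guanine nucleotide synthesis (log2 0.56 ± 0.11), rose most. In this list 5 genes rose without wt11.

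Hormones and receptors that move pigment, and genes of tyrosine metabolism, breakdown included, and of copper delivery, were read last. The 18 tested hormone and receptor genes comprised 8 decreases and 2 increases (median log2 fold change -0.83). These are 44.4% and 11.1% of those tested, against 31.8% lower and 30.5% higher over all genes. The genes that rose were pomca, the precursor gene of melanocyte stimulating hormone, at 9.05, 3.37 and 5.13 CPM in mutants against 1.47 to 1.55 CPM in wild type (log2 1.95 ± 0.34, adjusted p = 0.0004726), and the adrenergic receptor gene adra2a (log2 0.64 ± 0.21), which did not pass without s3, without wt13 or with upper-quartile scaling. Those that fell most were the low-count receptor genes mchr2b (log2 -1.90 ± 0.53, and -2.52 without s3) and mtnr1bb (0.46 ± 0.12 CPM in mutants against 1.15 ± 0.30 CPM in wild type, adjusted p = 0.01328), the second of which did not pass without s2 or wt13. Without s2, 5 genes of this list fell.

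For tyrosine metabolism and copper delivery, 11 of 18 tested genes were lower in mutants and 1 was higher, and the median was -1.04. In shares this was 61.1% lower and 5.56% higher, against 31.8% and 30.5% over all tested genes. Most reduced were hpda (8.69 ± 1.46 CPM in mutants against 158.6 ± 19.2 CPM in wild type, log2 -4.19 ± 0.15) and hpdb (log2 -2.51 ± 0.26). Both encode a liver enzyme of the tyrosine breakdown pathway. The gene that rose was a qdpr copy (ENSDARG00000037378, log2 0.50 ± 0.18, adjusted p = 0.02768). It did not pass with upper-quartile scaling or without s2, wt12 or wt13. The list had 2 increases without s3 or wt11 and 0 without wt12.

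Over the 6 libraries, the non-member genes whose log2 CPM was most like the mean standardised level of the members, among 14442 genes with a symbol and at least 5 CPM, were lim2.1 (Pearson r = 0.999, 10.1 CPM in mutants against 20.2 CPM in wild type on average), dclre1b (r = 0.996, log2 -0.47 ± 0.12), col10a1 (r = 0.995, log2 -0.89 ± 0.14), elnb (r = 0.994, log2 -2.38 ± 0.28) and cnsta (r = 0.994, log2 -1.07 ± 0.16). They are lens, DNA repair, cartilage matrix, elastic fibre and membrane traffic genes. This is a description over libraries that differ mainly by genotype, and 4.77% of those genes had an r above 0.95.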

How the data were processed

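Per the file headers, the authors counted read pairs over exons per gene with featureCounts 2.0.1 on Ensembl GRCz11 release 105, with no strand option, and deposited raw counts of 6 libraries. The submitters' processing notes also name fastp 0.20.0, HISAT2 2.2.1, Salmon 0.12 and DESeq2 1.40.2. The authors' deposited comparison table gives log2 fold changes, their errors, raw and adjusted p-values, a mean signal per gene and a test score (statistic). The deposited table of ribosomal RNA precursor reads was not used here. Column headings show the genotype and not the replicate number. Libraries are therefore named by heading (s1 to s3 for mutant, wt11 to wt13 for wild type). The p-values set the difference between genotypes against the spread between these libraries.

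Symbols matched 29201 of 32520 gene identifiers. Where the name table gives duplicates 1 symbol (among members tyrp1a, tyrp1b and mitfa), the copy was taken by its chromosome in RefSeq's GRCz12tu gene table. Of 190 symbols in 7 further lists, 7 were not matched. Members and lists were chosen with earlier results of these data known.

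Counts were fitted with edgeR 4.0.16 (R 4.3.3), TMM scaling, default filtering, robust quasi-likelihood tests and adjustment over 21708 genes; standard errors come from the test statistic. The script was tested on simulated counts. Named in lists were the 2 called genes of largest change in each direction and 6 genes fixed in the naming rule. Other names are stated as chosen later. Within-library ratios (0.5 count added) and sums went through exact permutation tests over libraries, two-sided. Other settings tried were upper-quartile and RLE scaling, a stricter filter and none, DESeq2 1.42.0, limma 3.58.1 voom, each library left out, a replicate block and other ratio settings. Between libraries of a genotype, chi-square divided by its degrees of freedom was 7.67 to 32.2, above sampling noise.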

Additional observations from a re-analysis of the deposited data

How the results depend on the processing

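Over 13 alternatives, members lower in mutants numbered 7 or 8 and members higher 0; the change of 1 was slc24a5, which had 17 to 33 counts a library. The log2 fold change of pmelb, not called, was 0.12 without s3 and 0.09 without wt11, against -0.03 with all libraries. The mitfa estimate ran from 0.22 to 0.74 and passed in none of 12. Upper-quartile scaling moved the median of all genes to -0.17 from -0.04. Over all genes, 5923 to 7129 rose and 5937 to 7138 fell when single libraries were left out, and 5630 rose and 8047 fell with upper-quartile scaling, against 6614 and 6894.

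The final digits of the headings (s1 with wt11 and so on) do not come from the labels. Deviations from the genotype mean correlated at 0.12, 0.05 and 0.24 between libraries with the same digit. Libraries with different digits were not compared, so whether the digits mark a shared batch or pairing was not tested. With a replicate block from those digits, 7 members fell and 0 rose, with slc24a5 at log2 -0.71 (adjusted p = 0.06783), and 3 genes of the tyrosine and copper list rose, against 1 without it.

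Decreases in the melanosome list were 8 by DESeq2 and 7 to 12 with a library left out, against 13. The tyrosine and copper list had 2 increases with RLE scaling, DESeq2 or limma voom, 0 with upper-quartile scaling and 0 to 2 with a library left out. The hormone list, with 2 increases and 8 decreases, had 1 and 12 with upper-quartile scaling, 10 decreases with the replicate block, and 1 to 2 increases and 5 to 9 decreases with a library left out. The iridophore list had 3 to 5 increases with a library left out and 2 with the stricter filter, against 3. The ratio of pigment genes to the retinal pigment epithelium list turned to -0.31 with mean log2 CPM and to -0.44 without rbp4 and gja1b, an alternative added after the data were seen, against 0.14; the range with a library left out was 0.06 to 0.24. The stricter filter left mitfa out.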

Other observations

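Within the xanthophore list, genes of pteridine synthesis and handling went both ways; they were picked after their values were seen. The gene pts, for the second enzyme of tetrahydrobiopterin synthesis, was at 2.76, 1.63 and 2.80 CPM in mutants against 6.16, 4.93 and 5.82 CPM in wild type (log2 -1.23 ± 0.24, edgeR adjusted p = 0.0008416). The duplicates for sepiapterin reductase went apart: spra was at 17.6, 15.1 and 14.7 CPM in mutants against 5.49, 6.13 and 6.59 CPM in wild type, while sprb was at 0.54, 0.65 and 0.31 CPM against 1.61, 2.67 and 1.49 CPM. Both passed, with log2 fold changes of 1.37 ± 0.15 and -1.93 ± 0.39. Receptor gene csf1ra, of xanthophores and macrophages, fell (log2 -1.17 ± 0.15) beside the rises of il34 and csf1b.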
